A study of Mus musculus with 36 samples.

Results

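The genes described here set, copy and remove methylation of cytosine in DNA: *Dnmt1*, *Uhrf1*, *Dnmt3a*, *Dnmt3b*, *Dnmt3l*, *Tet1*, *Tet2* and *Tet3*. They were taken by name, as every row of the 6 deposited tables of liver H3K9me3 that carries 1 of these 8 symbols, from 22325 gene symbols listed in all. The 8 genes held 435 of 786789 rows and all 8 were present in every table, as were 80.6% of all listed genes. *Uhrf1* and *Dnmt3l* are not DNA methylation enzymes in the strict sense, since UHRF1 reads methylated DNA and DNMT3L has no catalytic activity of its own.

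H3K9me3, trimethylation of lysine 9 of histone H3, is a mark of repressed chromatin and was measured by ChIP-seq in livers of mouse offspring. The series has 32 immunoprecipitated libraries in 8 groups of 4 and 4 input libraries. Control females (CF) and control males (CM) were born to dams on the control diet, whereas MF and MM offspring were females and males of dams on a Western-style diet (maternal obesity, MO). Each was taken at 3 weeks, before weaning, or at 8 weeks, after 5 weeks on chow, and all were floxed littermate controls on a C57BL/6J background. Their dams belonged to a *Reg3g* fl/fl colony bred in-house and were mated with wild-type C57BL/6J males, and the offspring are described as *Reg3g*-fl/+ or *Reg3g*-fl/fl, without the genotype behind each library. The 6 tables are the CF and the CM comparison of the 2 ages, and the MF against CF and MM against CM comparisons at each age. The age table of a sex shares its 3-week controls with the 3-week MO table and its 8-week controls with the 8-week MO table.

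Each row is a bin of about 500 bases or less, and a table lists 1 bin for each peak. The level of a bin is given as the average log2 CPM (CPM is the count of reads scaled to the library's total) that the authors deposited, taken over the 8 libraries of both groups in the table. A level therefore describes both diets, or both ages, together. Values of single libraries were not analysed here, so no replicate error and no test between diets, ages or sexes can be given, and the exact depth of each library is unknown (an approximate depth common to all is stated with the methods). The tables were scaled separately, so log2 CPM of different tables cannot be compared directly. For this reason the percentile of a level among all rows of its table is given for many bins, though not for all. The median row had 2.65, 2.41 and 2.63 log2 CPM in the female age, 3-week and 8-week tables, and 2.10, 2.03 and 2.74 in the male tables. The tables held between 102145 and 159357 rows. Markers of liver were not checked, since a table of a repressive mark does not measure the expressed genes of a tissue.

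DNA methylation in mammals is found mostly at CpG dinucleotides. DNMT1 copies it to the new strand after replication, recruited by UHRF1, which binds hemimethylated CpG and also recognizes methylated lysine 9 of histone H3. DNMT3A and DNMT3B methylate previously unmodified CpG, DNMT3L stimulates them in germ cells, and TET1, TET2 and TET3 oxidize 5-methylcytosine as the first step of its removal. In many regions of the genome, repeats above all, H3K9me3 and DNA methylation occur together.

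The stretches below come from high bins of their gene or from a start site described in the results. They were read from the GRCm38 reference, 5′ to 3′ on the plus strand, except for the *Tet2* promoter, which runs along transcription on the minus strand. Capitals mark CpG. The *Uhrf1* and *Tet2* promoters are the 250 bases before a RefSeq start (chr17:56304063-56304312 and chr3:133544391-133544640). The others are the central 300 bases of a bin: chr12:3825787-3826086 in an intron of *Dnmt3a*, chr2:153674220-153674519 across an exon of *Dnmt3b*, chr10:62878201-62878500 across an exon of *Tet1*, chr10:62817751-62818050 in an intron of *Tet1*, and chr3:133797157-133797456 upstream and chr3:133451935-133452234 downstream of *Tet2*.
Uhrf1 promoter: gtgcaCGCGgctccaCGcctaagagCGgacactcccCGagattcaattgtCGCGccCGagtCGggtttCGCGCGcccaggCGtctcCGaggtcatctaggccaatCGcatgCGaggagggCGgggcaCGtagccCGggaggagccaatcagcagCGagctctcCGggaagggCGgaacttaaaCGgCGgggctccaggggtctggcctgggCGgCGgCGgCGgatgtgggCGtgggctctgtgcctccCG
Dnmt3a intron: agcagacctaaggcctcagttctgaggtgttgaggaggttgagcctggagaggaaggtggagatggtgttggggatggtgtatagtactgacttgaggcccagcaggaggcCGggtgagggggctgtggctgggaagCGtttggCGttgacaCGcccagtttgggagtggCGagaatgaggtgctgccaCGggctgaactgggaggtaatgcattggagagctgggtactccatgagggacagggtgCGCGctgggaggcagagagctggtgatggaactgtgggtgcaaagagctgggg
Dnmt3b exon: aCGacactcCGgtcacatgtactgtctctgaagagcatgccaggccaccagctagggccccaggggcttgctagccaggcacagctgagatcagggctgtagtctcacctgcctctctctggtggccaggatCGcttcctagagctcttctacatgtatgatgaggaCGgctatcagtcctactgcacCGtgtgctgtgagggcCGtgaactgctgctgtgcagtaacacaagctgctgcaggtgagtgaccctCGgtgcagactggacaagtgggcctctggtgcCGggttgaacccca
Tet1 exon: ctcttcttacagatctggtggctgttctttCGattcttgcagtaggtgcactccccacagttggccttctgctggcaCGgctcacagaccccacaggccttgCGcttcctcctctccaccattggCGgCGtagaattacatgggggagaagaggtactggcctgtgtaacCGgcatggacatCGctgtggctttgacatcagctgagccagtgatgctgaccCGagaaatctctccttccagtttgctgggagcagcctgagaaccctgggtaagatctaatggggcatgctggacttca
Tet1 intron: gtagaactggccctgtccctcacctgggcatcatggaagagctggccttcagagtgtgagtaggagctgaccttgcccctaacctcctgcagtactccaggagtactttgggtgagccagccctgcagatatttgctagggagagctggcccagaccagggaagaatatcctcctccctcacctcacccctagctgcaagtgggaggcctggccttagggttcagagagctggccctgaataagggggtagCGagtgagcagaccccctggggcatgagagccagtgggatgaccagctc
Tet2 promoter: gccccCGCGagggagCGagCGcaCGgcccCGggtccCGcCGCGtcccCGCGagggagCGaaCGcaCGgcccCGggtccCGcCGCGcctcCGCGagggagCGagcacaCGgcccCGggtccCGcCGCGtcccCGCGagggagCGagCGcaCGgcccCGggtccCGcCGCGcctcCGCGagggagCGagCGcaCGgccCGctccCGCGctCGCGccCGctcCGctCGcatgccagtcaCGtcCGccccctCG
Tet2 upstream: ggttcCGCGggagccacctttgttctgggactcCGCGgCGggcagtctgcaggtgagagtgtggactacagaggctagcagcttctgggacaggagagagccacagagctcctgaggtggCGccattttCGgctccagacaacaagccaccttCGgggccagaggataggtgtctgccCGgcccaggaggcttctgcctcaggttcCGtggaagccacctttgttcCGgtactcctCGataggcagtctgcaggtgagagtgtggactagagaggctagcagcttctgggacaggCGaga
Tet2 downstream: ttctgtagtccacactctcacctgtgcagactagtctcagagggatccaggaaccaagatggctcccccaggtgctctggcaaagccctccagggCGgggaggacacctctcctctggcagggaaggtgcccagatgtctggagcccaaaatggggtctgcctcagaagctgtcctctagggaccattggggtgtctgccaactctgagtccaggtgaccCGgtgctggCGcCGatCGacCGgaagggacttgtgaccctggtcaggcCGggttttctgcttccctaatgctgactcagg

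These stretches differ in CpG and in repeats. The *Tet2* promoter holds 51 CpG and the *Uhrf1* promoter 30, against 1 in the *Tet1* intron and 8 each in the *Dnmt3a* intron, the *Dnmt3b* exon and the *Tet1* exon. The upstream *Tet2* stretch holds 13 CpG and is soft-masked as a repeat over 90.0% of its bases, and the downstream one holds 7 CpG and is masked over 98.3%. A run of 23 bases of the downstream stretch is found on the other strand of the upstream stretch, and the upstream stretch repeats a run of 28 bases within itself. The *Tet2* promoter, unmasked in the reference, repeats a run of 43 bases within itself.

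Over the 6 tables together, H3K9me3 bins of the members were most numerous at *Dnmt3a* and fewest at *Uhrf1* and *Dnmt3l*. In the male tables *Tet3* also had few, with 4, 4 and 2 in the age, 3-week and 8-week tables. *Dnmt3a*, the main de novo methyltransferase of somatic cells, had 28, 30 and 25 bins in the female age, 3-week and 8-week tables and 32, 38 and 19 in the male tables. *Tet2* had 12, 14 and 9 in females and 14, 14 and 11 in males. *Dnmt1* had 6, 8 and 7 bins in females and 12, 15 and 8 in males. *Uhrf1* had 2 or 3 bins in every table and *Dnmt3l* between 1 and 6. The 3-week table of either sex listed more member bins than the 8-week table, 76 against 59 in females and 98 against 53 in males. The same order holds for all rows of the tables, 140214 against 116257 in females and 159357 against 102145 in males.

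**Figure D1:**
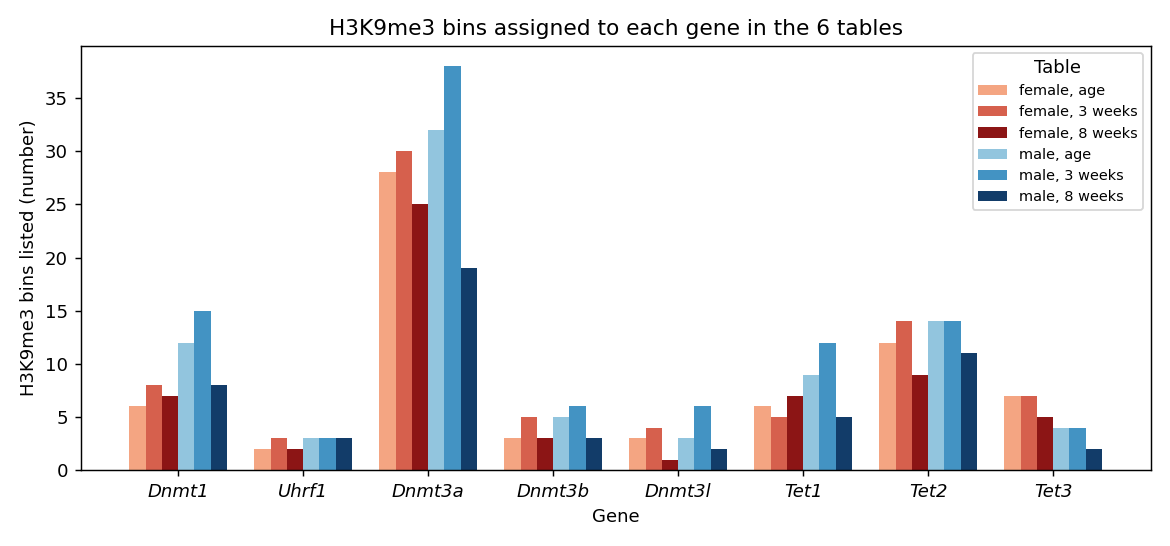
Number of H3K9me3 bins listed under each gene (bars) in each of the 6 tables (colours; "age" compares control offspring of 3 and 8 weeks, the others compare MO with control offspring at that age). *Dnmt3a* has 19 to 38 bins per table and no other gene has more than 15.

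The share of a gene under peaks gave another order. *Uhrf1*, 20150 bases long, was covered by whole peaks of any symbol over 90.5% of its length in females and 86.6% in males, which placed it at percentiles 94.4 and 93.2 of 21627 protein-coding RefSeq genes. *Dnmt1* was covered over 58.3% and 63.4% of 52683 bases, and *Dnmt3a* over 49.3% and 53.0% of 112885 bases. *Dnmt3l* was covered over 33.7% in females and 59.0% in males. *Tet3* was covered over 38.0% and 35.9%. *Dnmt3b* had 10.4% and 11.6%, and *Tet1* 9.69% and 12.9%, close to the median protein-coding gene with 9.32% in females and 9.78% in males. *Tet2* was the least covered member, with 3.01% and 1.85% of 81460 bases, percentiles 35.1 and 29.6. Of all these genes, 20.3% in females and 21.3% in males had no peak.

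**Figure D2:**
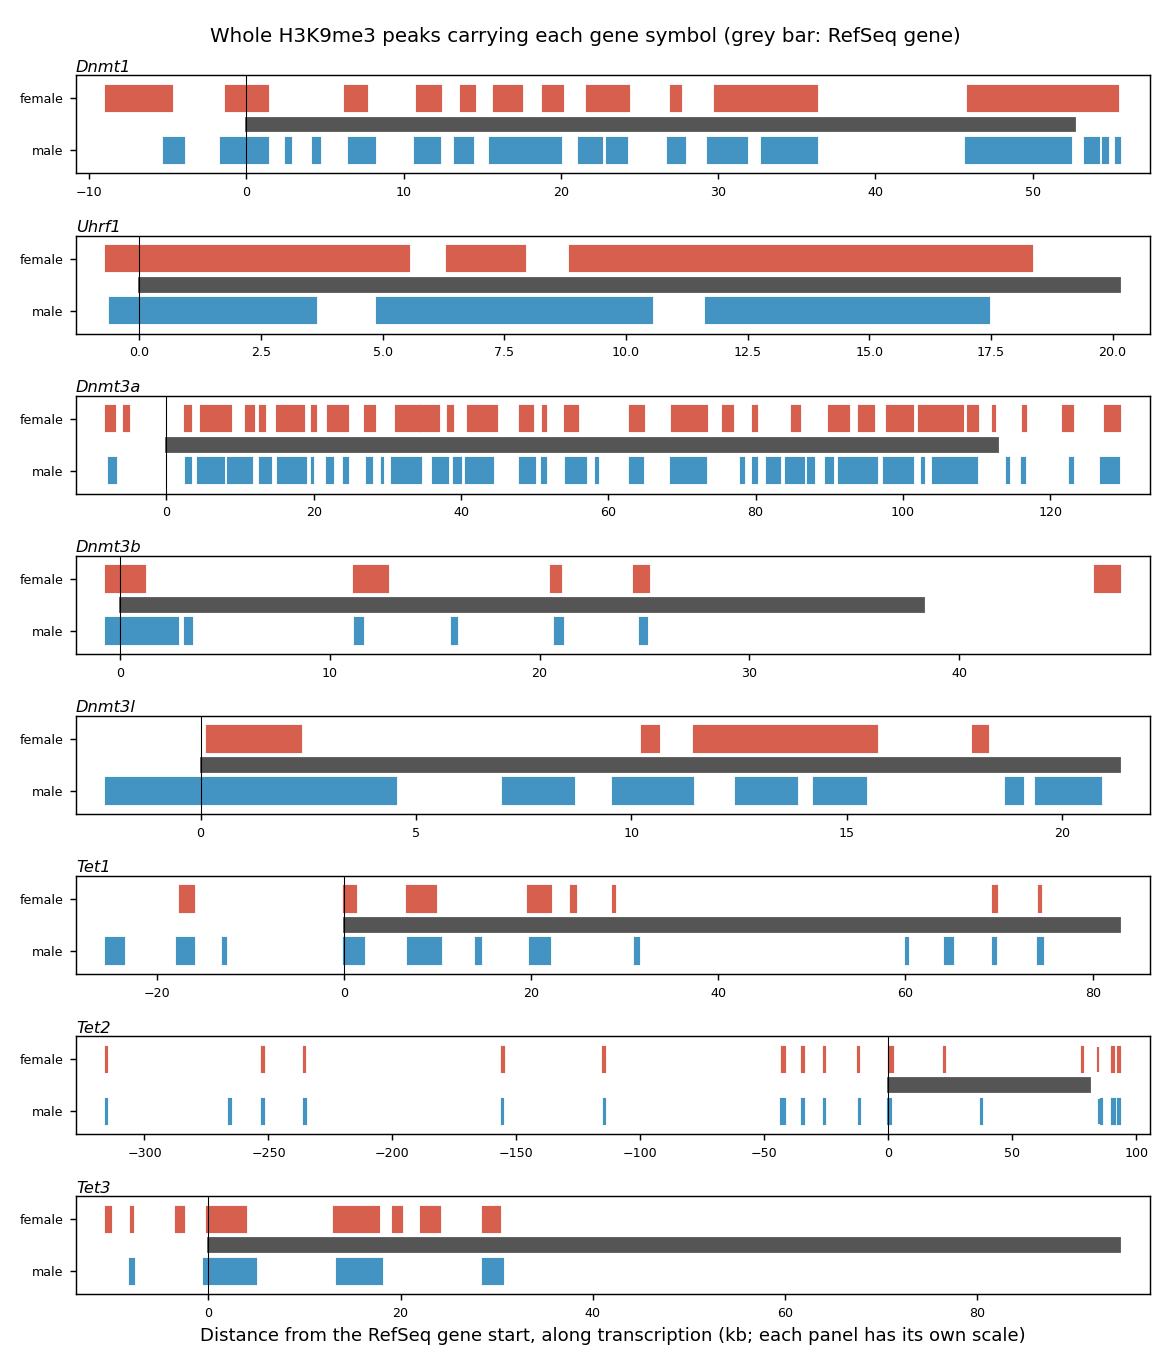
Position of whole H3K9me3 peaks that carry each gene symbol in at least 1 table, by distance from the RefSeq gene start along transcription (kb), for females (red) and males (blue). Grey bars are the RefSeq genes. Peaks fill most of *Uhrf1*, whereas those of *Tet2* lie mainly outside the gene, up to 315.1 kb before it.

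Of 250 different bins listed for the members, 190 overlapped the RefSeq gene, 40 lay before its start and 20 past its end. A coding exon of the gene was touched by 56 of them. *Tet2* accounted for 22 of the 40 bins before a start and 7 of the 20 past an end, and only 6 of its 35 bins were inside the gene. All 14 bins of *Dnmt3l* and 10 of 11 of *Uhrf1* were inside. A symbol names the gene with the nearest start site, and it could change with the bin that a table retained. The long *Dnmt1* peak of females at chr9:20904467-20913990 carried *Dnmt1* at 3 weeks but *Mir7081*, a microRNA gene within *Dnmt1*, in the other female tables. The peak of males over the start of *Dnmt3l* (chr10:78040099-78046828) carried *Dnmt3l* at 8 weeks and its neighbour *Aire* in the other male tables. A female peak listed as *Dnmt3b* (chr2:153695888-153697069) overlaps *Dnmt3c*, the rodent paralogue next to it, in GENCODE.

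Member bins were annotated to a promoter within 1 kb in 14 of 67, 16 of 76 and 13 of 59 rows of the female age, 3-week and 8-week tables. The background over all rows was 14.2%, 12.7% and 14.6%. In males they were 22 of 82, 23 of 98 and 16 of 53 rows, with a background of 13.0%, 12.1% and 16.2%. The members thus had 20.9% to 30.2% of their rows there, and they had fewer distal intergenic rows, 16.3% to 19.7% against 38.1% to 40.3% of all rows. The annotation counts starts of minor transcripts within a gene as promoters, which matters at *Dnmt3a*, where 24 different bins carried it. RefSeq start sites gave a stricter count. In windows from 250 bases before to 50 after a start, a whole peak was present at 13 of 15 member windows in females and at 15 of 15 in males, where 47.6% and 49.4% of all 32619 windows had one. Each of the 8 genes had a peak at a minimum of 1 start in both sexes. The 2 windows without one in females were both of *Dnmt3l*. Windows of 1 gene can share a peak. The member windows held a median of 18 CpG, against 7 in all windows, and the part of CpG content in these shares was not tested.

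The median percentile of the members was 37.6, 47.8 and 37.9 in the female age, 3-week and 8-week tables and 44.9, 41.3 and 50.02 in the male tables. Over the 435 rows it was 42.9, and 188 rows (43.2%) were above the median of their table. By gene, 45 of 74 *Tet2* rows (60.8%) and 14 of 25 *Dnmt3b* rows (56.0%) were above it. The share was 45.5% for *Tet1*, 41.1% for *Dnmt1*, 40.7% for *Dnmt3a*, 31.3% for *Uhrf1*, 26.3% for *Dnmt3l* and 20.7% for *Tet3*. Of 16 rows in the top 5% of their table, 13 were of *Tet2*, 2 of *Tet1* and 1 of *Dnmt3a*. The same peak can enter 3 tables of a sex, so these rows are not independent.

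**Figure D3:**
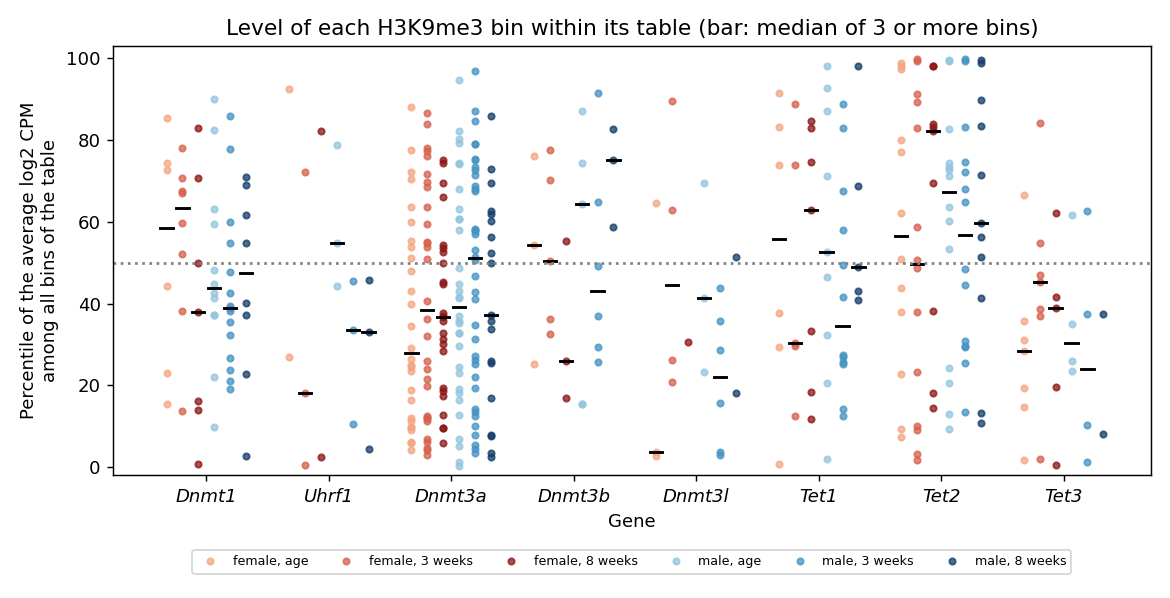
Percentile of the average log2 CPM of each member bin among all bins of its table (points), by gene and table, with black bars at the median of 3 or more bins and a dotted line at percentile 50. *Tet2* is the only gene with points above percentile 98 in every table, whereas *Tet3* stays below percentile 85.

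Among the maintenance genes, *Uhrf1* had its highest bin at its start. In females the bin chr17:56303660-56304160, between the 2 RefSeq starts of the gene, had 3.17, 2.57 and 2.99 log2 CPM in the age, 3-week and 8-week tables, at percentiles 92.6, 72.1 and 82.2. It has a CpG observed/expected ratio of 0.96 and overlaps the *Uhrf1* promoter sequence printed above. In males the bin chr17:56303729-56304229 of the same place had 2.39 in the age and 2.71 in the 8-week table, whereas the 3-week table retained chr17:56302729-56303229 of that peak, with 2.00. The remaining *Uhrf1* bins were lower. In the female peak chr17:56312192-56321677 a different bin was listed in each table, with 2.503, 2.21 and 2.20, and the bin at chr17:56310652-56311152 had 1.95 in the 3-week table, at percentile 0.598. The male bins outside the start peak ranged from 1.74 to 2.62.

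*Dnmt1* had bins along its whole length. Its nearest bin to the RefSeq start was chr9:20958482-20958982 in females, with 2.48, 2.42 and 3.01 log2 CPM in the age, 3-week and 8-week tables, and chr9:20958479-20958979 in males, with 2.59, 2.37 and 2.84. A second cluster of starts, about 7 kb into the gene, lay under chr9:20952203-20953627 in females. The 3 tables retained different bins there, with 3.01 in the age table and 2.17 and 2.36 at 3 and 8 weeks. Males had the bin chr9:20952212-20952712 in all 3 tables, with 2.44, 1.98 and 2.91. Another promoter bin, chr9:20936073-20936573 in females and chr9:20936190-20936690 in males, had 2.84, 2.47 and 2.83 in females and 2.22, 2.07 and 2.78 in males. In the male 8-week table the highest bin listed as *Dnmt1* crossed an exon (chr9:20926615-20927098), with 2.94. That table alone listed it, and a bin of the gene with the symbol *Mir7081* had 3.075 there. In the male age and 3-week tables the highest bin listed as *Dnmt1* was chr9:20958479-20958979, the nearest to the start. The 10 different *Dnmt1* bins called promoter within 1 kb spanned 1.88 to 3.01 log2 CPM. Males also had 2 small peaks with no female peak, at chr9:20955223-20955626 (2.06 and 2.02 in the age and 3-week tables) and chr9:20957058-20957341 (2.00, 1.83 and 2.67). Further rows of *Dnmt1*, chr9:20964638-20965138 in females and chr9:20963858-20964358 in males, lay within the neighbour *S1pr2*.

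Of the de novo genes, *Dnmt3a* carried 32 peaks in females, 29 of which overlapped a male peak, and 38 in males, 30 of which overlapped a female peak. Its highest bin in males was the intronic single-bin peak chr12:3825696-3826178, with 2.75, 2.66 and 3.16 log2 CPM in the age, 3-week and 8-week tables, at percentiles 94.7, 96.9 and 85.8. In females this place fell in the longer peak chr12:3823494-3826177, whose listed bin, chr12:3823494-3823994, had 2.76, 2.73 and 2.63. The highest female bin in the age and 8-week tables was chr12:3864497-3864997, with 3.05 and 2.88, while the 3-week table listed the next bin of that peak with 2.05. In males the same place, chr12:3864519-3865019, had 2.40 and 2.64. The bin nearest to the first base of the RefSeq gene, 2557 bases into it in females and 2645 in males but ahead of the start that the annotation used, was chr12:3804116-3804616 in females and chr12:3804204-3804704 in males, with 2.37, 2.07 and 2.53 and 2.41, 2.17 and 2.83. The CpG-rich start region was under a peak of both sexes, with 2.16 in the 3-week table for the female bin chr12:3807273-3807773 (GC content 83.6%) and 1.74 in the age table for the male bin chr12:3807348-3807848. The bins that the other tables retained of this peak had 2.30 and 2.48 in the female age and 8-week tables and 2.22 and 2.96 at 3 and 8 weeks in males. The last, chr12:3807848-3808348 at percentile 72.9, had the highest log2 CPM of the *Dnmt3a* bins called promoter within 1 kb. By percentile the highest of them was chr12:3899441-3899941 in the female age table, at 77.65. An internal RefSeq start lay under the peaks chr12:3891552-3894183 in females and chr12:3891064-3892115 in males. The listed bin, over the start in females and just before it in males, had 2.45 and 2.41 in the female age and 3-week tables, with no row at 8 weeks, and 2.06, 1.82 and 2.35 in the male tables. Over all 24 promoter bins within 1 kb, the level of *Dnmt3a* ran from 1.64 to 2.96, never above percentile 77.7.

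*Dnmt3b*, the second de novo methyltransferase, had a peak over its start in both sexes. The female bin chr2:153648752-153649252 had 2.88 and 2.62 log2 CPM in the age and 3-week tables, and the 8-week table listed the next bin, over the start, with 2.67. The male tables each retained another bin of this peak, with 1.83, 1.94 and 2.81. At exons 13 and 14, the female bin chr2:153673887-153674387 had 2.68, 2.56 and 2.38, and the male single-bin peak chr2:153674192-153674548 had 2.53, 2.48 and 3.10, at percentiles 87.2, 91.5 and 82.8. The male values were the highest of *Dnmt3b* in males in every table. At the internal promoter, the female bin chr2:153669964-153670424 had 2.32 and 2.45 at 3 and 8 weeks, and the male bin chr2:153670149-153670511 had 2.33, 2.03 and 2.98 in the age, 3-week and 8-week tables. An intronic peak had 2.49 and 2.41 in females (chr2:153660566-153661066) and 2.23 and 2.15 in males (chr2:153660625-153660997), in the age and 3-week tables only.

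*Dnmt3l*, the catalytically inactive cofactor, had its most persistent female bin in a single-bin peak, chr10:78052531-78052929, with 2.77, 2.78 and 2.49 log2 CPM in the age, 3-week and 8-week tables. At 8 weeks it was the only female row with this symbol. In males that place was listed at 3 weeks alone (chr10:78052365-78052865), with 1.63. The male bin over the start, chr10:78042099-78042599, had 2.75 in the 8-week table. This was the highest log2 CPM of *Dnmt3l* in males, but only at percentile 51.5 of its table. The bin chr10:78056518-78057018 had 2.28 in the male age table, at percentile 69.45, and 2.51 in the male 8-week table, at percentile 18.1. Female bins at chr10:78055244-78055744 (2.27) and chr10:78060207-78060567 (2.29) were both below percentile 5 of the age table. Of 7 male peaks, 5 were listed at 3 weeks and not at 8 weeks, as were 62626 of 169602 male peaks in all.

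Of the demethylation genes, *Tet2* had the highest levels of all members in each table, and they lay outside the gene. The bin chr3:133451835-133452335 of females, 11.3 kb past the gene's end, had 3.61, 3.37 and 3.67 log2 CPM in the age, 3-week and 8-week tables. Its male counterpart chr3:133451848-133452348 had 3.36, 3.29 and 3.91. Its percentile was between 98.2 and 99.9 in the 6 tables. The bin chr3:133797022-133797522, 251.9 kb before the gene, had 3.41, 2.82 and 3.65 in females, and chr3:133797057-133797557 had 3.45, 2.94 and 4.27 in males. The last value, an average of 19.3 CPM, was the highest of any member. Another bin, chr3:133780436-133780906, had 3.498, 3.26 and 2.99 in females. The matching male peak was lower, with 2.45 and 2.18 at chr3:133780498-133780851 in the age and 3-week tables and 2.47 for its other bin at 8 weeks. These 3 places are intergenic in GENCODE and were soft-masked over 83.0% to 92.6% of their bases. At the *Tet2* start, the female bin chr3:133544766-133545086 had 2.14 and 2.36 at 3 and 8 weeks, at percentiles 10.0 and 14.5, and males had 2.30 and 2.94 for chr3:133544044-133544544 in the age and 8-week tables and 2.15 for chr3:133544544-133545044 at 3 weeks. The male start bins were at percentiles 71.1, 65.0 and 71.4.

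Other *Tet2* rows lay within non-coding genes, and nearest-start assignment does not tie them to *Tet2* otherwise. Within *Gm42567*, chr3:133570829-133571099 of females had 2.61, 2.05 and 3.02 log2 CPM and chr3:133570808-133571019 of males 2.22, 1.86 and 2.79. The bins at chr3:133579284-133579784 and chr3:133579272-133579772 had 2.93, 2.78 and 2.81 in females and 2.31, 2.24 and 2.82 in males. The farthest rows, within *Gm26691* and 315.1 kb before the gene, were entirely soft-masked, with 2.89 and 3.01 in the female age and 8-week tables and 2.32, 1.89 and 3.11 in the male tables.

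In males *Tet1* had its highest level in each table at a coding exon about 9 kb into the gene. The male bin chr10:62878101-62878601 crosses a coding exon and had 3.02, 2.42 and 3.78 log2 CPM in the age, 3-week and 8-week tables, at percentiles 98.1, 88.9 and 98.1. In females the same peak was listed by 3 different bins, and the one at chr10:62878119-62878619 had 3.14 in the age table. The others had 2.29 at 3 weeks, at percentile 30.3, and 2.88 at 8 weeks. The peak at a minor start farther into the gene had 2.85 and 3.00 in the female age and 8-week tables (chr10:62865378-62865878) and 2.53 in the male age table (chr10:62865432-62865932). The remaining tables listed another bin of it, with 2.59 in females at 3 weeks and 1.87 and 2.73 in males at 3 and 8 weeks. At the RefSeq start, chr10:62887119-62887447 of females had 2.52 and 2.74 in the age and 8-week tables, and the male peak had 2.30 for its bin in the age table and 1.76 and 2.67 for another bin at 3 and 8 weeks. The CpG-poor single-bin peak in intron 7 was present in all 6 tables, with 2.97, 2.77 and 3.04 in females (chr10:62817694-62818108), where it was the highest *Tet1* bin at 3 and 8 weeks, and 2.07, 2.09 and 2.69 in males (chr10:62817767-62818082). Its percentile was 83.1 to 88.9 in females and 43.0 to 58.0 in males. A nearby bin went the other way, with percentiles of 12.4 to 37.6 in females (chr10:62812990-62813207) and 68.8 to 92.7 in males (chr10:62812792-62813292). In males 6 *Tet1* peaks, 2 of them before the gene, had no overlapping female peak.

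By the highest bin in each table *Tet3* was the lowest of the demethylation genes, although its median level in the female 3-week table (2.38) was above that of *Tet1* (2.29). Its rows lay in the first part of the gene and before it. The peak over its start, chr6:83453282-83457304 in females and chr6:83452227-83457626 in males, was listed by a different bin in each female table, with 2.53, 2.34 and 2.40 log2 CPM. The male bin over the start, chr6:83456227-83456727, had 1.74 and 2.65 at 3 and 8 weeks, and the age table listed another bin of the peak with 2.20. The highest female bin was intergenic, chr6:83467366-83467832, 10.2 kb before the gene, with 2.78, 2.70 and 2.74 and no peak in males. The intron 2 bin chr6:83426897-83427397 had 2.45, 2.39 and 2.55 in females, and the overlapping male peak had 1.91 and 1.57 for different bins in the age and 3-week tables. The internal RefSeq start was under a peak in both sexes, but only the male age table listed a bin at it (chr6:83441600-83442100), with 1.896. Bins elsewhere in these peaks had 2.24 and 2.57 in the female age and 8-week tables and 2.13 and 2.42 in males at 3 and 8 weeks. Whole peaks of any symbol in *Tet3* numbered 16 in females and 13 in males, against 8 and 4 peaks listed under its symbol.

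Peaks of the members were compared between the ages within a sex. The MO tables of 3 and 8 weeks share no library, although both start from the peaks merged for that sex. In females 40 of 76 member rows of the 3-week table (52.6%) shared a base with a row of the 8-week table, where the share of all rows was 61.7%. The reverse was 40 of 59 (67.8%), with 74.4% of all rows. In males it was 41 of 98 (41.8%) with a background of 50.4%, and 41 of 53 in reverse (77.4%) with 78.6%. Taken as whole peaks, 53 of 86 female (61.6%) and 54 male member peaks (52.4%) were listed at both ages, 24 and 47 at 3 weeks and not at 8 weeks, and 9 and 0 at 8 weeks and not at 3 weeks. Both ages listed 65.5% of the 156217 female peaks and 57.0% of the 169602 male peaks in all, with 37849 and 62626 at 3 weeks and not at 8 weeks, and 13892 and 5414 the other way. *Dnmt3a* had 23 of 32 peaks at both ages in females and 19 of 38 in males, and *Tet2* 8 of 15 and 11 of 16. A peak missing from a table was not thereby absent from the liver, since the rule by which a table listed a peak is not stated.

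Where both ages listed an identical bin, its level at 8 weeks was set against that at 3 weeks, less the median shift of all such bins (0.23 log2 in females and 0.63 in males). A centred difference of at least 0.5 was found upward in 2 of 36 member bins in females (4.57% of all 76657 bins) and downward in 2 of 36 (2.99%). In males 3 of 32 were upward (5.48% of all 69096 bins) and 0 downward (3.49%). These shares are of few bins and no replicate error stands behind them. The upstream *Tet2* bin at 251.9 kb was upward in both sexes, by 0.61 in females (2.82 to 3.65 log2 CPM) and by 0.70 in males (2.94 to 4.27). The other upward bins were the *Tet1* exon bin in males (0.72), the *Tet2* bin within *Gm26691* in males (0.59) and that within *Gm42567* in females (0.75, against 0.29 in males). Downward were the *Dnmt3l* bin chr10:78052531-78052929 (-0.52) and the *Tet2* bin chr3:133780436-133780906 (-0.50), both in females. The *Tet2* bin past the gene's end moved with all bins, with 0.07 in females and -0.01 in males. The median centred difference of the members was -0.04 in females and 0.01 in males. No bin of *Dnmt1*, *Uhrf1*, *Dnmt3a*, *Dnmt3b* or *Tet3* that both ages listed reached 0.5 in either direction.

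**Figure D4:**
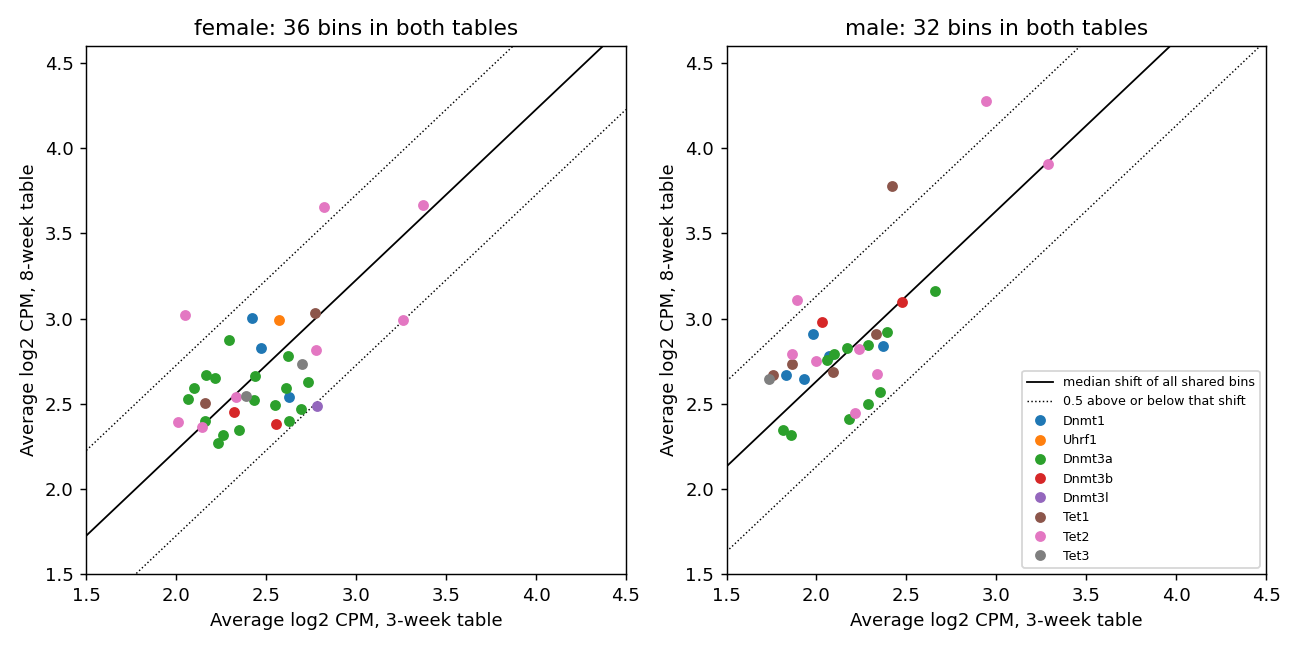
Average log2 CPM of member bins in the 8-week MO table against the 3-week MO table, for females and males, in colours by gene. The solid line is the median shift of all shared bins and the dotted lines lie 0.5 above and below it. The bins above the upper line are of *Tet2* and, in males, *Tet1*.

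Between the sexes, 36 of 67 female member rows of the age table (53.7%) shared a base with a male row, against 56.7% of all rows, and 36 of 82 in reverse (43.9%) against 46.2%. At 3 weeks the shares were 37 of 76 (48.7%, background 52.7%) and 37 of 98 (37.8%, background 46.4%). At 8 weeks they were 28 of 59 (47.5%, background 50.6%) and 28 of 53 (52.8%, background 57.6%). As whole peaks, 71 of 86 female member peaks (82.6%) and 77 male ones (74.8%) overlapped a peak of the other sex, where 77.1% and 72.8% of all peaks did. All 11 *Dnmt1* and all 3 *Uhrf1* peaks of females had a male counterpart. *Tet3* had 4 of 8 in females, and *Tet1* 6 of 12 and *Dnmt3l* 4 of 7 in males. No member bin had the same start and end in both sexes, and 0.0772% to 0.112% of all rows did, since the authors built the peak sets of the sexes apart.

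The sequence under the member bins was close to that of all bins. The 250 different bins had a median GC content of 54.9%, a CpG observed/expected ratio of 0.26 and a soft-masked share of 9.58%, against 53.9%, 0.27 and 11.4% for 414426 bins in all. By gene, the CpG ratio was lowest at *Dnmt3a* (0.21) and *Dnmt3l* (0.22) and highest at *Tet1* (0.37) and *Dnmt1* (0.34). *Tet2* differed in repeats, with 16 of 35 bins (45.7%) soft-masked over more than 50% of their bases, against 13.2% of all member bins and 19.3% of all bins. No *Uhrf1* or *Dnmt3b* bin was. The hexamer TGCCGC, which the zinc finger protein ZFP57 binds when methylated, was searched on both strands. Among bins of full length it was present in 12.5%, 20.8% and 16.7% of member bins in the female age, 3-week and 8-week tables and in 20.0%, 17.2% and 26.3% in the male tables. All bins of that length had it in 15.4%, 13.4% and 16.1% and in 13.9%, 12.8% and 17.1%. Start bins of *Uhrf1*, *Tet3* and *Dnmt3a* held it in both sexes, and so did 1 male start bin of *Tet2*. None of the 8 sequences printed above has it.

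**Figure D5:**
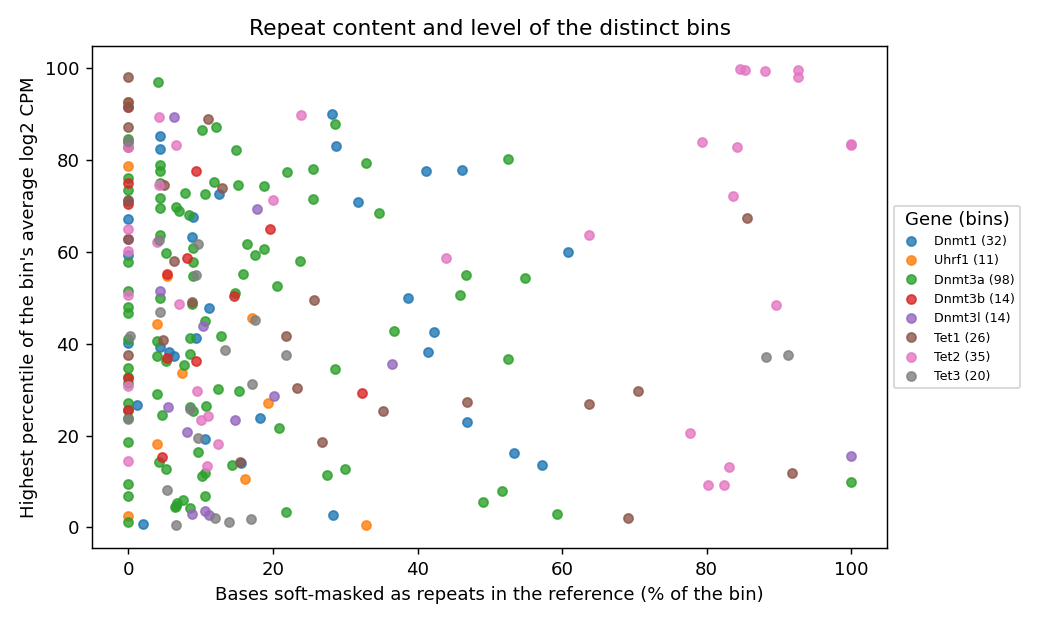
Highest percentile of the average log2 CPM reached by each of the 250 different member bins against the percentage of its bases soft-masked as repeats in the reference, in colours by gene. The bins above percentile 97 and above 80% masked are all of *Tet2*.

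Of 36 other genes of the pathway, 34 were listed, 24 of them in all 6 tables and 10 in fewer, whereas *Apex1* and *Mbd4* were listed in none. The 24 are 70.6% of those listed, against 80.6% of all listed genes. Their rows were near the middle of each table, with median percentiles of 48.2 to 56.3. A row annotated to a promoter within 1 kb was present in a minimum of 4 tables for 24 genes, or 70.6% of those listed, against 54.6% of all listed genes and each of the 8 members. These were *Uhrf2*, *Hells*, *Usp7*, *Pcna* and *Cdca7*, whose products act with or beside maintenance methylation, *Dppa3*, whose product opposes it by displacing UHRF1, the methyl-CpG readers *Mbd1*, *Mbd2*, *Zbtb38* and *Zbtb4*, *Mbd3*, a member of the same family that does not selectively bind methylated CpG, and the CXXC proteins, which bind unmethylated CpG, *Cxxc1*, *Cxxc4*, *Cxxc5*, *Kdm2a* and *Kdm2b*. The others were the repair and demethylation partners *Neil1*, *Xrcc1*, *Gadd45a* and *Gadd45g*, the genes of methyl donor metabolism *Mat2b*, *Ahcy* and *Gnmt*, and *Idh2*. The product of *Idh2* is a source of the 2-oxoglutarate that TET enzymes use. The highest level among the 36 was that of *Zbtb33*, which encodes the reader KAISO, with 4.13, 3.18 and 4.53 log2 CPM in the female tables. It lies on the X chromosome, as does *Ogt*, and neither was listed in males. The X chromosome held 4.65% to 5.73% of female rows but 0.33% to 0.73% of male rows. *Cxxc1* reached 4.18 in males at 8 weeks, with 3.61 and 2.47 in the other male tables and 3.01, 3.01 and 3.04 in females. *Mbd1* reached 4.17 in the male age table, with 3.47 and 3.09 at 3 and 8 weeks and 4.11, 2.93 and 3.86 in females.

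By its highest bin in each table, *Tet2* had 3.61, 3.37 and 3.67 log2 CPM in females and 3.45, 3.29 and 4.27 in males. In the female tables and the male 3-week table this was the intergenic bin past the gene's end. In the male age and 8-week tables it was the intergenic bin 251.9 kb before the gene. The 3 genes of 17984 listed in all tables whose highest bins were most alike were *Vmn2r96*, *Mup5* and *Slc25a54*, with mean absolute differences of 0.06, 0.07 and 0.07 log2 over the 6 tables. *Vmn2r96*, a vomeronasal receptor gene, had 3.59, 3.44 and 3.88 in females and 3.40, 3.31 and 4.27 in males. *Mup5*, a major urinary protein gene, had 3.57, 3.51 and 3.67, and 3.32, 3.24 and 4.31. The likeness is of 6 averages that share libraries and, for *Tet2*, come from different places outside the gene.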

How the data were processed

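Processed tables of 32 H3K9me3 ChIP-seq libraries of mouse liver were used, and the 4 input libraries were not used here. According to the methods section, the authors aligned reads to mm10/GRCm38 with BWA and called broad peaks with MACS2. Peaks seen in at least 3 replicates and outside blacklisted regions were merged over the conditions of a sex, and those over 500 bp were cut into bins. The authors counted reads with featureCounts, compared groups with edgeR's exact test and assigned genes with ChIPseeker. How the 1 bin per peak was retained is not stated, and for a peak of several bins it may depend on that comparison, as may its level.

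The only measure used was the authors' average CPM on a log2 scale, as deposited. The tables also hold the authors' fold changes, p-values and FDRs for each comparison, which are their findings and were not used. There were 0 per-sample columns without a sample. From the files, percentiles within a table, overlaps (at least 1 base), centred differences between ages, coverage of RefSeq genes and sequence features (GRCm38.p6, GENCODE M21) were computed with Python 3.11.15, numpy 2.4.6, pandas 2.3.3 and scipy 1.17.1. Overlap and sequence functions were tested on simulated data. RefSeq promoter windows matched all 8 genes. In the text the 3 values of a sex follow the order age, 3-week and 8-week table unless said otherwise.

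The members and the list of 36 other genes were chosen with earlier results of these data known. Named bins were those nearest to the start, the highest in each sex and those at promoters within 1 kb, the latter given as counts and ranges where numerous. Of the other genes, those with such a promoter row in at least 4 tables and the 3 highest were named. A further gene of that list is counted but not reported here. The comparison of levels between ages was added after seeing the data. Alternatives were other overlaps, rows above the median, peaks of 1 bin, assignment by position, autosomes and windows of 1 kb. A share was called moved when it left the 95% Wilson interval of the main share. That interval treats rows as independent, although many rows share a gene, so it served as a yardstick and not as a test.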

Additional observations from a re-analysis of the deposited data

How the results depend on the processing

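No paired analysis was possible because the tables hold 1 average per bin and no value for any numbered library; for the same reason no library could be left out. The rows of the members numbered 435, and 188 when only rows above the median level were kept and 109 when only peaks of 1 bin were. Assignment by position in the gene or the 3 kb before it, and leaving out distal intergenic rows, kept the number within 1.5 times.

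Between ages, taking whole peaks raised the shares from 52.6% to 68.4% and from 67.8% to 84.7% in females (3 against 8 weeks and the reverse) and from 41.8% to 52.0% and from 77.4% to 100% in males. With whole peaks, all rows had 73.0% and 88.1% in females and 60.7% and 94.7% in males. From 3 to 8 weeks, rows above the median gave 56.8% of member rows in females (21 of 37), against 77.8% of all rows, and 63.2% in males, against 67.3%. From 8 to 3 weeks they gave 77.3% in females, against 86.0% of all rows, and 85.2% in males, against 85.4%. In males, from 8 to 3 weeks an overlap of 50% or identical ends gave 60.4%, against 67.7% of all rows. Matching by peak name, added after seeing the data, gave the same values as whole peaks.

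Between sexes, identical ends gave 0% in all 6 comparisons. Whole peaks gave 80.6%, 81.6% and 72.9% of female rows in the age, 3-week and 8-week tables and 74.4%, 69.4% and 83.0% of male rows. The shares of all rows were then 78.3%, 76.6% and 67.4% in females and 65.9%, 69.2% and 77.1% in males. The members thus lay above them, though barely so for male rows at 3 weeks. In the comparison of all bins by 1 shared base they lay below them. Rows above the median gave 77.8%, 56.8% and 63.6% of female member rows in the age, 3-week and 8-week tables and 70.3%, 68.4% and 70.4% of male ones. All rows had 68.6%, 63.35% and 66.4% in females and 63.2%, 60.2% and 72.2% in males. An overlap of 50% gave 39.6% of male rows at 8 weeks, against 51.2% of all rows. Autosomes alone moved no share beyond its interval. With windows of 1 kb the median GC content of the members was 52.1% in place of 54.9%. Their CpG ratio was 0.24 in place of 0.26 and their soft-masked share 15.1% in place of 9.58%. All bins then had 50.4%, 0.248 and 16.5%, in place of 53.9%, 0.27 and 11.4%. Single-bin peaks had a median age difference of -0.09 in place of -0.04 in females (9 bins) and 0.03 in place of 0.01 in males (12 bins). Of the 9 female bins, 2 (22.2%) were lower by at least 0.5, against 3.47% of all such bins, and 1 (11.1%) was higher, against 4.2%. Of the 12 male bins, 0 were lower, against 4.29% of all such bins, and 1 (8.33%) was higher, against 4.53%. With no exact depth per library, the precision of each level and of its order among other bins is unknown.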
